A study of Mus musculus with 23 samples.

Results

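The antiviral effector genes Mx1, Mx2, Ifit1, Ifit2, Ifit3, Rsad2, Cmpk2, Bst2, Isg15 and Usp18 were followed across 23 clonal mouse preadipocyte lines, each measured on 1 Affymetrix-type array. The 10 genes were chosen by symbol, and only probe sets listing 1 symbol were used, the one of highest mean over the 23 lines standing for its gene. Of the 10, 9 had such a probe set, from 12 probe sets in all (3 for Rsad2, 2 for Cmpk2, 1 for each of the others). Isg15 appeared only on a probe set that lists a second gene, so it has no level here. All 9 measured genes were among the 12307 genes tested, of 18193 with a value, and levels are log2 signal throughout, where 1 unit is a doubling.

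Each line was grown from 1 sorted cell from the stromal vascular fraction (adipose tissue freed of its fat cells) of 1 male Immortomouse aged 8 weeks. The Immortomouse carries a temperature-sensitive viral T antigen under an interferon-inducible major histocompatibility promoter, so its cells divide at 33 °C with interferon. All lines of all groups were kept at 33 °C in medium with 10 units/mL interferon gamma, so no line is an interferon-free control. The groups were Other (7 lines given no numbered type, 3 named PGF and 4 SCF), Type 1 (3 lines, all PGF), Type 2 (5 lines, 1 PGF and 4 SCF) and Type 3 (8 lines, 4 of each), where PGF and SCF were taken as perigonadal and subcutaneous fat. Lines are numbered within a group by order of deposition, each is 1 clone, and all came from 1 animal, so the spread is between clones. Types had been formed by the submitters from clustered expression of these lines, and Mx1 is one of the study's type markers, so a p-value between types describes groups already drawn on these data and is no independent evidence for Mx1.

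Of the 9 preadipocyte and fibroblast markers measured, the collagen gene Col1a2 lay between 12.31 and 14.14 and the receptor gene Pdgfra between 8.49 and 12.70 in all lines, but others were low in some lines. Zfp423 averaged 6.27 in Other, 3.69 in Type 1, 6.50 in Type 2 and 7.43 in Type 3, and Pparg 7.29, 4.71, 8.77 and 7.98 in the same groups. Cd34 and Thy1 were instead highest in Type 1. In that order of groups Cd34 averaged 6.89, 9.51, 5.09 and 7.32, and Thy1 7.82, 9.25, 7.19 and 7.03. The lowest lines had Cd34 at 3.49 and Thy1 at 4.46. The leukocyte gene Ptprc did not exceed 3.61. Of the endothelial list, Pecam1 did not exceed 3.76, whereas Kdr ran from 5.49 to 8.86 and Tek from 3.97 to 10.59. Over the whole macrophage and leukocyte list (10 genes, 5 of them tested) the mean level per line lay between 4.89 and 5.26 in Other lines, 4.68 and 4.75 in Type 1 lines, 4.97 and 5.17 in Type 2 lines, and 4.50 and 5.18 in Type 3 lines. The highest genes of that list were Csf1r (5.98 to 11.68), Cd14 (7.13 to 8.95) and Cd68 (4.12 to 7.66). The plasmacytoid dendritic cell list, which holds Bst2 itself, had its defining gene Siglech at 4.63 to 5.23. Its other genes were Tcf4 (8.13 to 9.70), Irf8 (4.64 to 8.75) and Ly6d (4.81 to 6.10). The mean level of this list per line ran from its lowest at 6.80 in a Type 3 line to its highest at 7.87 in a Type 1 line. Mature fat cell genes were low (Lep at most 3.20), and Adipoq reached 6.48 in its highest line. The 6 mesothelial genes averaged 9.15 to 10.14 per line in Type 1 and at most 5.22 elsewhere. Krt19 alone of these went the other way, averaging 7.28 in Other, 5.49 in Type 1, 7.78 in Type 2 and 6.33 in Type 3. Type 1 thus differs from the other groups in cell character too, and the part of this in the Type 1 results was not tested. In bulk RNA, fewer cells expressing a gene and less RNA per cell cannot be told apart.

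Type I and type III interferons bind their receptors, which activate JAK kinases and a complex of STAT proteins with Irf9 that binds the interferon-stimulated response element (ISRE). Interferon gamma acts through another receptor and a STAT dimer that binds the gamma-activated site (GAS). The genes described here are among the most strongly induced through the ISRE. Their products act at different steps: Mx proteins trap viral nucleocapsids, Ifit proteins bind foreign RNA, Rsad2 (viperin) makes a chain-terminating nucleotide from a precursor that Cmpk2 helps to supply, Bst2 (tetherin) holds budding virus at the cell surface, Isg15 is a ubiquitin-like modifier, and Usp18 removes Isg15 and restrains the type I interferon receptor.

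Promoter windows are shown because the ISRE is the shared entry point of these genes, and the windows differ in whether they hold it. RefSeq promoter windows of build GRCm38.p6, from 250 bases before to 50 bases after the annotated start, were at hand for 7 of the 10 genes (8 windows, as Ifit2 has 2 starts). No window was at hand for Mx1, Mx2 and Usp18. The windows were searched on both strands for the ISRE core GAAANNGAAA and for the GAS core TTCNNNGAA. Of the 7 genes, 5 held the ISRE core, which occurs in a window of 3.99% of 27025 genes (3.44% of the 32851 windows, all of the same length). Below, each window runs 5′ to 3′ on the gene's own strand, and capitals mark the ISRE core, which reads as its reverse complement where it lies on the opposite strand.
Ifit1: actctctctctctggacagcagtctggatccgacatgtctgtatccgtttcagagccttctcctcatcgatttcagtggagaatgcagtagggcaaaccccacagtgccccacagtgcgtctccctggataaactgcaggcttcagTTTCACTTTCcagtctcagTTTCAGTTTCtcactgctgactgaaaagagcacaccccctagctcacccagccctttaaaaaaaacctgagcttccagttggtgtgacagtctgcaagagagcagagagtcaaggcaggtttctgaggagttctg
Ifit3: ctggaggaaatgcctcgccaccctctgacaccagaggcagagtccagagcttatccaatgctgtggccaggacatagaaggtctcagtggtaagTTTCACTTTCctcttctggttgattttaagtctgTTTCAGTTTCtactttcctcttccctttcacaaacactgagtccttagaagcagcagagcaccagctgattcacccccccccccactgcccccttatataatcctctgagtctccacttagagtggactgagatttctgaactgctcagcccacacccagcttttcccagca
Rsad2: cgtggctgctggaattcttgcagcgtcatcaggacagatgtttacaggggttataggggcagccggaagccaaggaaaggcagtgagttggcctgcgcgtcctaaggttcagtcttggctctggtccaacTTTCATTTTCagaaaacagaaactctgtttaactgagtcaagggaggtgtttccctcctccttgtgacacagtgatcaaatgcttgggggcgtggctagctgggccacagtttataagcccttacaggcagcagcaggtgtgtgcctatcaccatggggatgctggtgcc
Bst2: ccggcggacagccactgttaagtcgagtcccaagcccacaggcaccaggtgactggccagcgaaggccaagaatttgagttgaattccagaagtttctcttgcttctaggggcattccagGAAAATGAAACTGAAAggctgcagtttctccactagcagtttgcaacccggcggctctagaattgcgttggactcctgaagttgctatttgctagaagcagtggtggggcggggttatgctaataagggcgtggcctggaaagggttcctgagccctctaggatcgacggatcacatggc
Isg15: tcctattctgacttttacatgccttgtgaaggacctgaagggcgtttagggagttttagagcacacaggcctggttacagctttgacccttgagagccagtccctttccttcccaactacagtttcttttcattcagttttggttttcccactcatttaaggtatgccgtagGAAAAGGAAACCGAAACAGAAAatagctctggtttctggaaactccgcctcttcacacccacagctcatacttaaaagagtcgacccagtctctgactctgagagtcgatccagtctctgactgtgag
Cmpk2: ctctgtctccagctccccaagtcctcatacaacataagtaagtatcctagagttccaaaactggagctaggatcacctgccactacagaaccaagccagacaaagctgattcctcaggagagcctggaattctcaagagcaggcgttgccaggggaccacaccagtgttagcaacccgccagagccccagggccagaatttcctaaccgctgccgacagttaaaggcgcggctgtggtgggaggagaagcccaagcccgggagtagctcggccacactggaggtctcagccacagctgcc
The Ifit1 window (chr19:34640639-34640938, plus strand) held 2 ISRE cores, at -104 and -85 from the start, and the Ifit3 window (chr19:34583279-34583578, plus strand) held 2, at -156 and -122. All 4 lay on the strand opposite to the gene, and the same 2 sequences, TTTCACTTTC and TTTCAGTTTC, occurred in both windows in the same order. The Rsad2 window (chr12:26456403-26456702, minus strand) held 1, at -120. The Bst2 window (chr8:71537423-71537722, minus strand) held 2 overlapping cores at -130 and -124, the first of them overlapping a GAS core at -136. The Isg15 window (chr4:156200769-156201068, minus strand) held 3 overlapping cores, at -78, -72 and -66. The Cmpk2 window (chr12:26468965-26469264, plus strand) and both Ifit2 windows held none of these letters, and the first Ifit2 window held a GAS core at -241, a motif found in 8.3% of all windows. A match is a run of letters and not a measured binding site.

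The genes fall into neighbouring groups on the chromosomes. Mx1 and Mx2 lie on chromosome 16 with 1 protein-coding gene, Fam3b, starting between them, and Rsad2 and Cmpk2 are direct neighbours on chromosome 12. Ifit1, Ifit2 and Ifit3 share chromosome 19, with Ifit1bl1, Ifit3b and Ifit1bl2 starting between Ifit3 and Ifit1. Ifit3b is a close copy of Ifit3, and whether the Ifit3 probe set also reads it was not tested. Bst2 is on chromosome 8, Usp18 on chromosome 6 and Isg15 on chromosome 4.

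These genes varied far more between the lines than most genes. Their SD over the 23 lines had a median of 0.91, against 0.24 over all genes tested. Mx1 (SD 2.04) lay at the 99.6th percentile of all genes tested and Rsad2 (SD 1.81) at the 99.3rd, whereas Bst2 (SD 0.56), the steadiest of the 9, lay at the 85.2nd. From the lowest line to the highest the signal spanned 116-fold for Mx1, 103-fold for Rsad2, 18.9-fold for Ifit2, 16.9-fold for Cmpk2 and 6.23-fold for Bst2. The plot of levels by line shows this spread, and that it lay within the groups as well as between them.

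**Figure D1:**
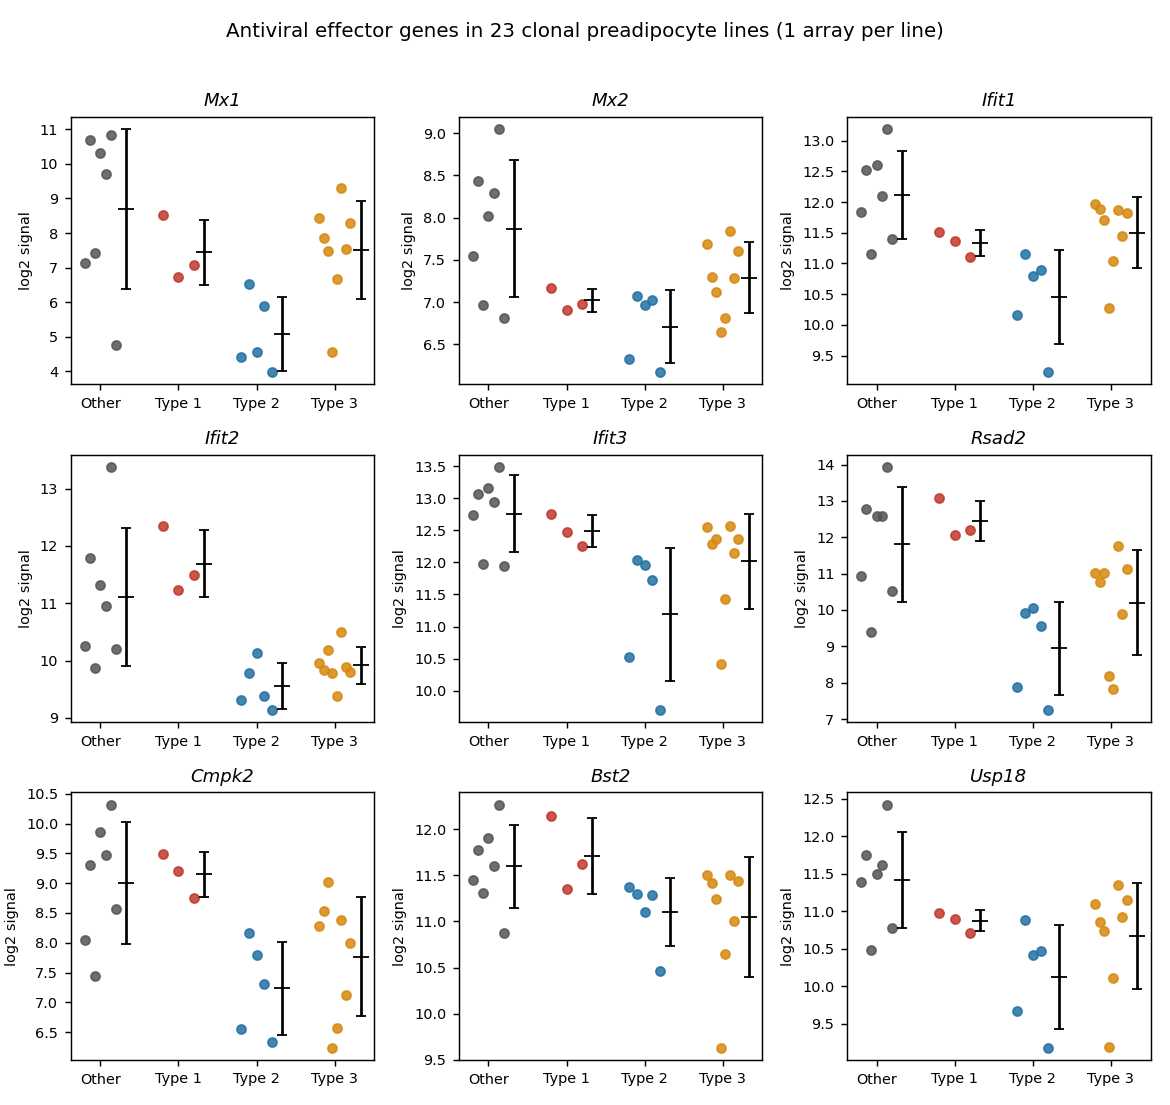
Log2 signal (y axis) of 9 antiviral effector genes, 1 panel per gene, in the 7 Other, 3 Type 1, 5 Type 2 and 8 Type 3 lines (x axis). Each point is 1 line, and the bar beside the points is the mean with SD. Type 2 holds the lowest group mean for 8 of the 9 genes, Bst2 being the exception, and 1 Other line (line 6) is the highest line in all 9.

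Lines that stand apart are described here ahead of the group comparisons. The actin ratio and some of the checks without single lines were added after the data were seen. Type 3 line 4 had the lowest level of all lines for 10.5% of the genes tested and the highest for 11%. Type 1 line 1 had the lowest for 12.3% and the highest for 18.1%, and the gap between its 3′ and 5′ actin signals, which widens as RNA degrades, was 1.58, against 0.53 to 1.00 elsewhere. Calls of the 9 genes gained or lost without either line, and their changes of sign, are stated with the comparison. So are calls lost by the genes named from the pathway lists.

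The Mx genes were read first. Mx1, a dynamin-like GTPase that acts in the nucleus in mice and is defective in many inbred strains, ran from 4.76 to 10.84 in Other (median 9.72). It was 8.51, 6.72 and 7.09 in Type 1, and 4.43, 6.54, 4.57, 5.88 and 3.98 in Type 2. In Type 3 it ran from 4.56 to 9.31 (median 7.71). Other was thus split, with 4 lines above every line of the remaining groups and 1 line (line 7, 4.76) among the Type 2 values, and the lowest Type 3 value belonged to line 4. Mean levels were 8.70 ± 2.31 in Other, 7.44 ± 0.94 in Type 1, 5.08 ± 1.08 in Type 2 and 7.52 ± 1.42 in Type 3 (SD, n = 7, 3, 5 and 8).

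Mx2, the cytoplasmic relative of Mx1, followed the same order over a narrower range. It ran from 6.81 to 9.05 in Other (median 8.02). It was 7.17, 6.90 and 6.98 in Type 1, and 6.32, 7.07, 6.97, 7.03 and 6.17 in Type 2. In Type 3 it ran from 6.65 to 7.84 (median 7.29). The Type 1 lines lay inside the ranges of Other and Type 3, and line 1 lay above all Type 2 lines.

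The Ifit genes encode proteins with repeated tetratricopeptide motifs that bind viral RNA or each other. Ifit1, which recognises RNA caps that lack a methyl mark, ran from 11.16 to 13.19 in Other (median 12.09) and was 11.52, 11.36 and 11.11 in Type 1. It was 10.16, 11.15, 10.79, 10.90 and 9.23 in Type 2, and ran from 10.28 to 11.96 in Type 3 (median 11.76). Every Other line was above every Type 2 line, with 11.16 facing 11.15 at the border. Ifit3, which in humans stabilises IFIT1, was close in pattern, from 11.94 to 13.49 in Other (median 12.94) and at 12.76, 12.47 and 12.25 in Type 1. It was 10.52, 12.04, 11.96, 11.73 and 9.70 in Type 2, and ran from 10.41 to 12.56 in Type 3 (median 12.33). All Type 1 lines lay above all Type 2 lines for Ifit3.

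Ifit2 differed in order from its neighbours. It ran from 9.87 to 13.38 in Other (median 10.96) and was 12.34, 11.23 and 11.49 in Type 1. It was 9.31, 9.79, 10.14, 9.39 and 9.14 in Type 2, and ran from 9.39 to 10.50 in Type 3 (median 9.86). The 3 Type 1 lines were above every Type 2 and every Type 3 line and inside the range of Other. The Type 2 and Type 3 ranges overlapped.

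Rsad2 and Cmpk2, neighbours on the chromosome and in the same pathway, shared the Ifit2 order. Rsad2 ran from 9.38 to 13.94 in Other (median 12.58) and was 13.09, 12.06 and 12.20 in Type 1. It was 7.89, 9.92, 10.06, 9.56 and 7.25 in Type 2, and ran from 7.83 to 11.77 in Type 3 (median 10.89). The Type 1 lines again lay above every Type 2 and Type 3 line. Cmpk2 ran from 7.44 to 10.32 in Other (median 9.30) and was 9.49, 9.21 and 8.75 in Type 1. It was 6.56, 8.17, 7.80, 7.31 and 6.34 in Type 2, and ran from 6.24 to 9.02 in Type 3 (median 8.13), where line 3 (9.02) lay above the lowest Type 1 line.

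Bst2 was high and narrow. It ran from 10.87 to 12.27 in Other (median 11.60) and was 12.15, 11.35 and 11.62 in Type 1. It was 11.37, 11.30, 11.10, 11.29 and 10.46 in Type 2, and ran from 9.63 to 11.51 in Type 3 (median 11.33). The lowest line was Type 3 line 4 at 9.63, with the next Type 3 line at 10.65. Usp18, the brake among these genes, ran from 10.48 to 12.42 in Other (median 11.50) and was 10.98, 10.90 and 10.71 in Type 1. It was 9.67, 10.88, 10.41, 10.47 and 9.18 in Type 2, and ran from 9.19 to 11.35 in Type 3 (median 10.88). All 3 Type 1 lines were above 4 of the 5 Type 2 lines, and every pair of groups overlapped.

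By order of the group means the genes fell into 2 sets, though Other and Type 1 were close for some of them. Mx1, Mx2, Ifit1, Ifit3 and Usp18 had their highest mean in Other. Ifit2, Rsad2, Cmpk2 and Bst2 had theirs in Type 1, with Other next. Differences between groups were tested with limma, and a gene passed when its p, adjusted by the Benjamini-Hochberg method over the 12307 genes, was under 0.05. Other minus Type 1 was 1.26 ± 1.08 for Mx1, 0.86 ± 0.37 for Mx2 and 0.78 ± 0.42 for Ifit1 (errors beside differences are SE). It was 0.55 ± 0.42 for Usp18 and 0.26 ± 0.48 for Ifit3. It was -0.57 ± 0.49 for Ifit2, -0.64 ± 0.90 for Rsad2, -0.15 ± 0.60 for Cmpk2 and -0.11 ± 0.34 for Bst2. Without Type 1 line 1, Cmpk2 (0.02) and Bst2 (0.12) changed sign, and Bst2 also did without Other line 7 (0.01). The place of Cmpk2 and Bst2 in the second set thus depended on single lines. With all lines in, 0 of the 9 genes passed in limma, with an adjusted p between 0.0858 and 0.882, and 28.4% of all genes did. At an unadjusted p under 0.05 there was 1 of the 9, against 39% of all genes, and the groups overlapped for all 9, against 20.1% of genes without overlap. Without Other line 3 or line 7 Mx2 passed (adjusted p = 0.0378 and adjusted p = 0.0243, limma), where 27.6% and 31% of all genes did. Without Other line 6 Ifit2 passed (-0.95, adjusted p = 0.0455), where 27.1% of all genes did.

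Other lines were compared with Type 2, the pair of groups farthest apart for Mx1. All 9 genes had positive differences, with a median of 1.57 over the 9 and 0.00 over all genes tested. Mx1 differed by 3.62 ± 0.92 (12.3-fold, 95% interval 1.72 to 5.52), Rsad2 by 2.88 ± 0.77, Cmpk2 by 1.76, Ifit1 by 1.67 ± 0.36 (3.17-fold), Ifit3 by 1.57, Ifit2 by 1.56, Usp18 by 1.30, Mx2 by 1.16 and Bst2 by 0.50. After Benjamini-Hochberg adjustment over all genes 0 of the 9 passed in limma (adjusted p from 0.0894 for Ifit1 to 0.466 for Bst2), where 0.00813% of genes passed. At an unadjusted p under 0.05 there were 8 of the 9, and 13.4% of all genes. The groups did not overlap for 1 of the 9, Ifit1, against 0.691% of all genes. Without Other line 7, the line with Mx1 at 4.76, 6 of the 9 passed, with Mx1 at 4.28 (adjusted p = 0.0128, limma), where 1.76% of all genes (216) did. Ifit1 alone passed without Other line 3 (adjusted p = 0.0481) or without Type 3 line 4 (adjusted p = 0.0392), where 0.13% and 0.179% of all genes did.

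Other minus Type 3 was smaller, with all 9 differences positive (median 0.74) and none past the threshold in limma (adjusted p from 0.493 to 0.701). No gene at all passed in this comparison (0% of genes), and the groups overlapped for all 9, as they did for all but 0.0406% of genes. Ifit2 differed by 1.20 ± 0.37, Rsad2 by 1.61 ± 0.68, Cmpk2 by 1.23 ± 0.45 and Mx1 by 1.18 ± 0.81. At an unadjusted p under 0.05 there were 6 of the 9, and 8.8% of all genes.

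Type 1 lines were next set against Type 2 lines. Of the 9 genes, 3 rose and 0 fell in Type 1. The Rsad2 mean was 12.45 ± 0.56 in Type 1 lines, against 8.94 ± 1.28 in Type 2 lines (SD, n = 3 and 5), and differed by 3.51 ± 0.96 (11.4-fold, adjusted p = 0.00929, limma). The Ifit2 mean was 11.69 ± 0.58 in Type 1 lines, against 9.55 ± 0.40 in Type 2 lines, and differed by 2.13 ± 0.52 (4.39-fold, adjusted p = 0.00418). The Cmpk2 mean was 9.15 ± 0.38 in Type 1 lines, against 7.24 ± 0.78 in Type 2 lines, and differed by 1.91 ± 0.63 (3.77-fold, adjusted p = 0.0298). Across the array 25.2% of all genes passed, 14.5% as higher, which is the background for 3 of 9.

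All 9 differences were positive between these groups, with a median of 1.31 over the 9 and 0.01 over all genes. Mx1 (2.36 ± 1.14, adjusted p = 0.138) and Ifit3 (1.31 ± 0.51, adjusted p = 0.0644) did not pass in limma, although neither overlapped between the groups. In 5 of the 9 genes the groups did not overlap, as in 32.1% of all genes. The 3 Rsad2 probe sets gave differences of 3.51, 3.47 and 3.76, and each passed. The 2 Cmpk2 probe sets disagreed, at 1.91 for the brighter one and 0.26 (adjusted p = 0.593) for the other, which spanned only 5.55 to 7.72 over all lines.

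The Type 1 calls leaned on Type 1 line 1, the line with the high actin ratio. With that ratio in the model the counts stayed at 3 of 9 against Type 2 and 1 of 9 against Type 3. Without Type 1 line 1, Ifit2 still passed against Type 2 (1.81, adjusted p = 0.0408, limma), whereas Rsad2 (3.19, adjusted p = 0.0553) and Cmpk2 (1.74, adjusted p = 0.12) did not. In that run 16.3% of all genes passed. Cmpk2 also did not pass without Type 1 line 2 or without Type 2 line 1 or 5, with the mean of its probe sets or with depot in the model (adjusted p from 0.055 to 0.0854). Without Type 3 line 4, whose removal changes the shared spread, Ifit3 passed as well (1.31, adjusted p = 0.0325).

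Type 1 minus Type 3 separated Ifit2 from its neighbours more sharply. The Ifit2 mean was 11.69 ± 0.58 in Type 1 lines, against 9.92 ± 0.32 in Type 3 lines (SD, n = 3 and 8), and differed by 1.77 ± 0.48 (3.41-fold, adjusted p = 0.0068, limma). It was the 1 gene of 9 that passed, where 34.7% of all genes did (18.9% as higher). The groups did not overlap for Ifit2 and Rsad2, 2 of 9, against 29% of all genes. Rsad2 (2.25 ± 0.89, adjusted p = 0.0538) and Cmpk2 (1.38 ± 0.59, adjusted p = 0.0723) did not pass. With all probe sets tested in limma, the Rsad2 probe set of lowest mean did pass (2.33, adjusted p = 0.0406). The remaining Rsad2 probe set (2.34, adjusted p = 0.0673) and the dimmer Cmpk2 probe set (0.13, adjusted p = 0.771) did not. Mx1 (-0.08, 95% interval -2.28 to 2.12), Mx2 (-0.27), Ifit1 (-0.17), Ifit3 (0.48) and Usp18 (0.19) had differences smaller than the spread between lines. Without Type 1 line 1 the Ifit2 difference was 1.44 (adjusted p = 0.0631). Rsad2 passed without Type 3 line 6, Type 2 line 5 or Other line 3 or 6 (adjusted p from 0.0379 to 0.0492), where 33% to 35.2% of all genes did. Without Type 3 line 4 the Usp18 difference changed sign, to -0.02.

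Type 2 minus Type 3 was negative for 8 of the 9 genes, with Bst2 at 0.05. Mx1 differed by -2.44 ± 0.89 (5.43-fold lower in Type 2, adjusted p = 0.168) and Ifit1 by -1.06 ± 0.35 (adjusted p = 0.14). None of the 9 passed in limma, where 0.382% of all genes did (0.203% higher and 0.179% lower), and 3 had an unadjusted p under 0.05, against 17.6% of all genes. The groups overlapped for all 9, against 3.28% of genes without overlap. Leaving out Type 3 line 4 moved Mx1 to -2.86 (adjusted p = 0.128) and Ifit1 to -1.23 (adjusted p = 0.0973, limma). Bst2 then changed sign, to -0.15. Each comparison shares a group with 4 of the other 5, so their counts are not independent.

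**Figure D2:**
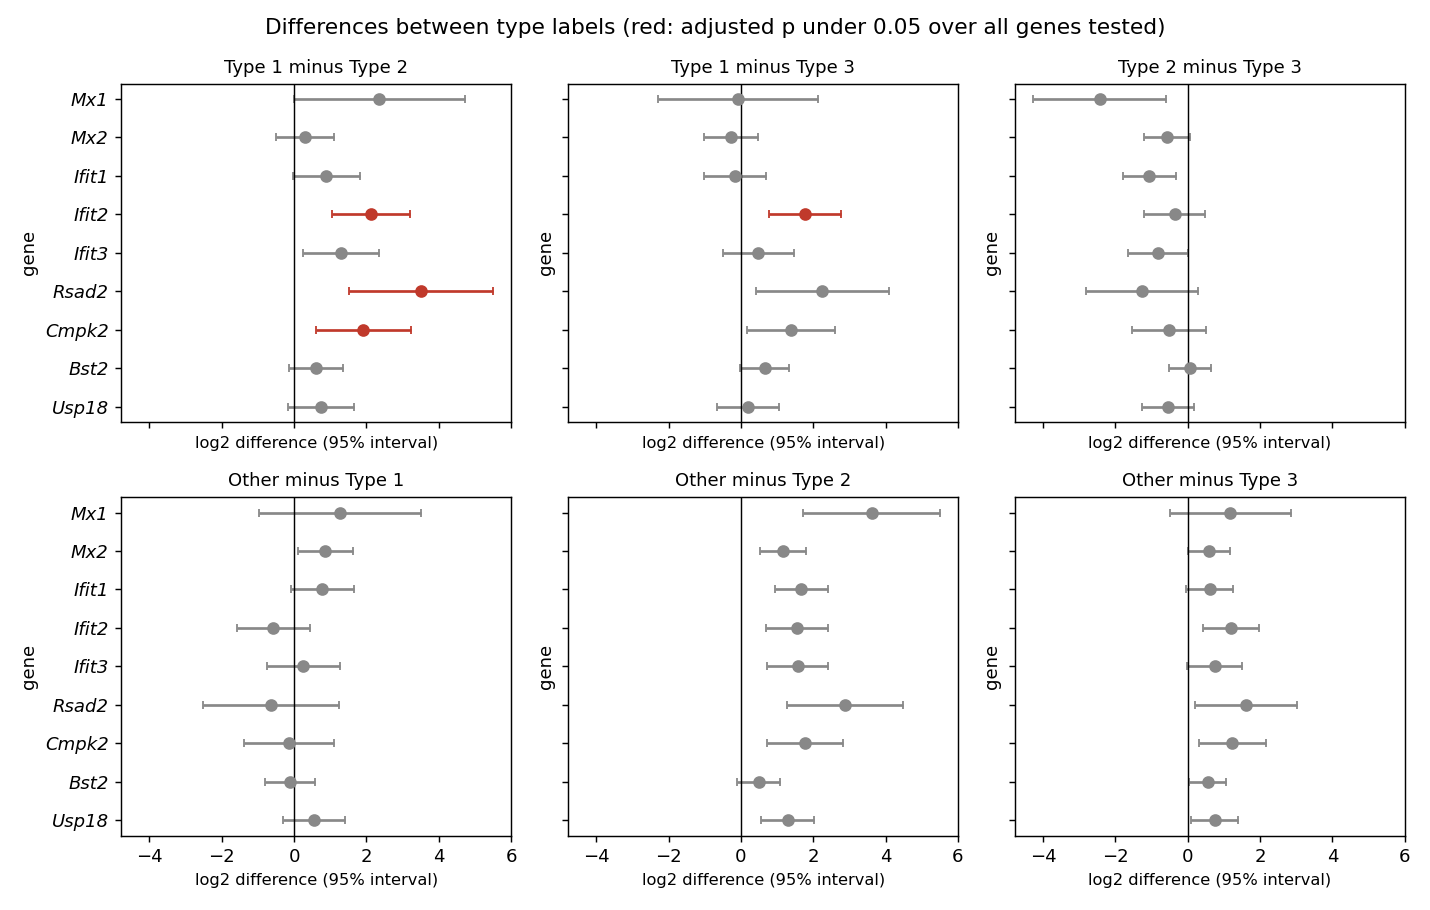
Differences in log2 signal between type labels (x axis, with 95% intervals from limma) for 9 antiviral effector genes (y axis), 1 panel per comparison. Red marks the 4 differences that passed: Ifit2, Rsad2 and Cmpk2 in Type 1 minus Type 2, and Ifit2 in Type 1 minus Type 3. All 9 points are above 0 in Other minus Type 2 and none passed there.

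Depot of origin and the per-line scores were then tried. With group in the model, PGF minus SCF was -0.03 for Mx1 (95% interval -1.60 to 1.54) and -0.06 for Rsad2 (95% interval -1.38 to 1.25), and the 9 differences ran from -0.21 to 0.16. None passed in limma (0 of 9 at an unadjusted p under 0.05, against 8.4% of all genes), and no gene on the array passed (0%). The interval for Mx1 is wide enough to hold a 2-fold difference either way. In a test of whether the depot effect differed between Type 3 and Other, none of the 9 passed (adjusted p from 0.724 to 0.983).

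Slopes per point of the differentiation score, which grades fat accumulation from 1 to 4, ran from -0.22 to 0.10 and none passed (0% of genes passed, and 0 of 9 had an unadjusted p under 0.05, against 7.09% of all genes). Slopes per point of the media acidification score were positive for all 9 genes, from 0.18 to 0.57, the largest in Mx1 (0.57 ± 0.27). None passed in limma (adjusted p from 0.308 to 0.506, with 0% of genes passing). There, 5 of the 9 had an unadjusted p under 0.05, against 12.3% of all genes. Without group in the model the 9 acidification slopes were 0.01 to 0.18 (adjusted p from 0.897 to 0.994). Which end of that score means more acid medium is not stated.

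The 9 genes moved together from line to line. Over the 36 pairs of genes Pearson's r had a median of 0.83, from 0.67 for Mx2 with Bst2 to 0.96 for Ifit3 with Usp18 (23 lines). Spearman's rho also had a median of 0.83, from 0.61 to 0.95. The largest permutation p of the 36 was 0.00077 for r and 0.0027 for rho, both unchanged by Benjamini-Hochberg adjustment over the 36 pairs, and the smallest was 1e-05, the smallest that 100000 permutations can give. For comparison, r between these genes and all other genes tested had a median of -0.02. The genes were listed as one known family, so their correlation describes the family in these lines and is not a discovery of it.

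Values within the groups were of similar size. With group means removed the median r was 0.83 (0.57 to 0.95). Within the 7 Other lines it was 0.91 (0.74 to 0.96), and within the 8 Type 3 lines 0.87 (0.45 to 1.00). Without Type 3 line 4 the Type 3 median was 0.85 (0.47 to 0.99, 7 lines). For each pair over all groups, the 2 lines farthest from the median of the gene listed first were also left out. The median r was then 0.77, and the weakest pair, Mx2 with Ifit2, was 0.43. Lines extreme only for the second gene stayed in.

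Sub-groups appeared within this shared pattern. Ifit1, Ifit3 and Usp18 were tied closest, at 0.94 to 0.96 with one another, and Rsad2 with Cmpk2 at 0.95. Mx1 was closest to Mx2 (0.91) and Ifit1 (0.90). Ifit2 had the lowest median r with the other 8 genes (0.70), was closest to Rsad2 (0.88) and Cmpk2 (0.84), and reached 0.67 with Ifit1 and 0.71 with Ifit3, its chromosomal neighbours. With group means removed, Ifit2 had 0.58 with Ifit3 and 0.83 with Mx2.

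**Figure D3:**
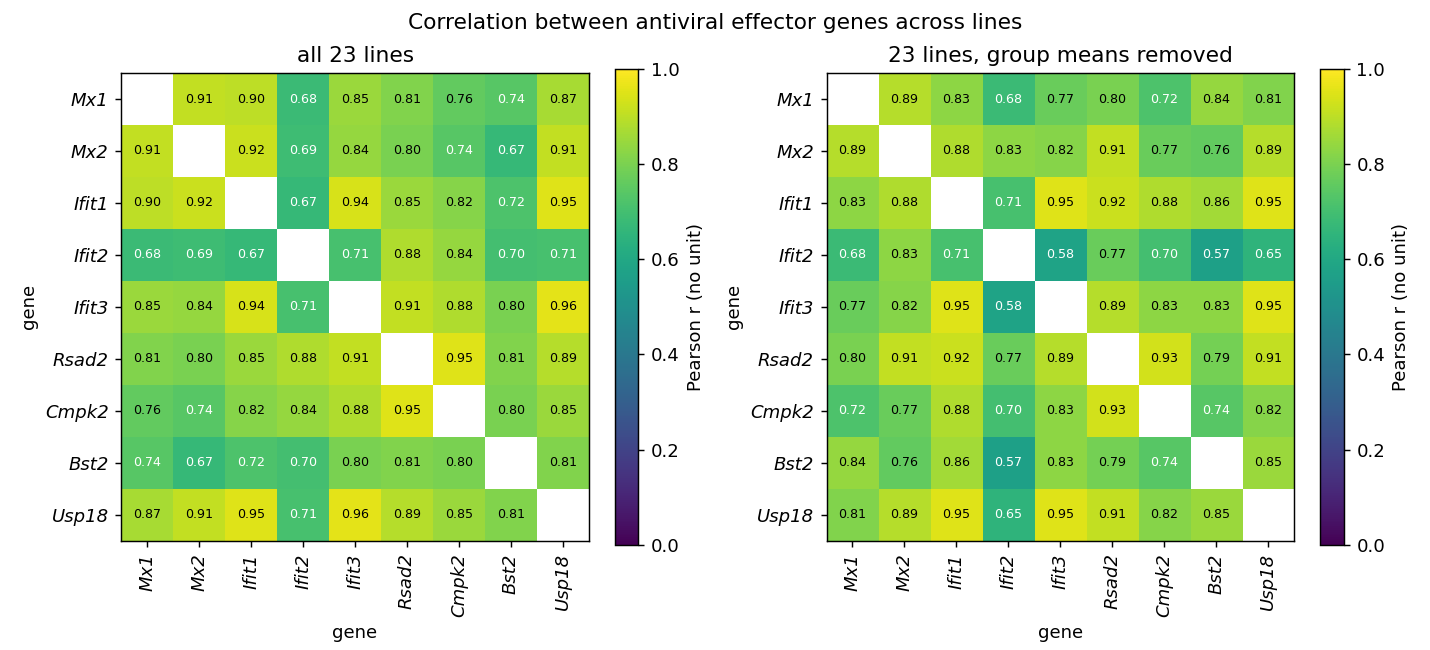
Pearson's r between 9 antiviral effector genes (both axes), on the left over all 23 lines and on the right with each group's mean removed. The Ifit2 row holds 6 of its 8 values at 0.71 or below on the left, and Ifit1, Ifit3 and Usp18 form a block at 0.94 to 0.96 on the left and 0.95 on the right.

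Outside the list, the genes most like Mx1 over the 23 lines were Oas1b (r = 0.92), Znfx1 (0.91), Mndal (0.89), Tor3a (0.89), Oas1c (0.89), Oas2 (0.88), Arel1 (0.88) and Ifih1 (0.88). Oas1b, Oas1c and Oas2 belong to the family of RNA-sensing oligoadenylate synthetases, and Ifih1 (MDA5) is a sensor of long double-stranded RNA. The genes with the highest mean r with all 9 were Ifih1 (0.88), Setdb2 (0.87), Tlr3 (0.87), Znfx1 (0.86), Pnp (0.85), Daxx (0.85), Aftph (0.85) and Ddx60 (0.85). Tlr3 is the endosomal receptor for double-stranded RNA. These genes were picked as the most alike of 12307, so the values are a description.

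Single lines carried the extremes. The mean of the 9 genes, each centred on its mean over all lines, was 2.14 in Other line 6, 1.38 in Other line 2, 1.29 in Other line 4 and 1.07 in Other line 5. It was 0.18, -0.41 and -0.43 in Other lines 1, 3 and 7, so Other held both high and middling lines. At the low end stood Type 2 line 5 (-2.03), Type 3 line 4 (-1.64), Type 2 line 1 (-1.49) and Type 3 line 5 (-1.02). All 5 Type 2 lines were below 0, as were 3 of the 8 Type 3 lines.

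**Figure D4:**
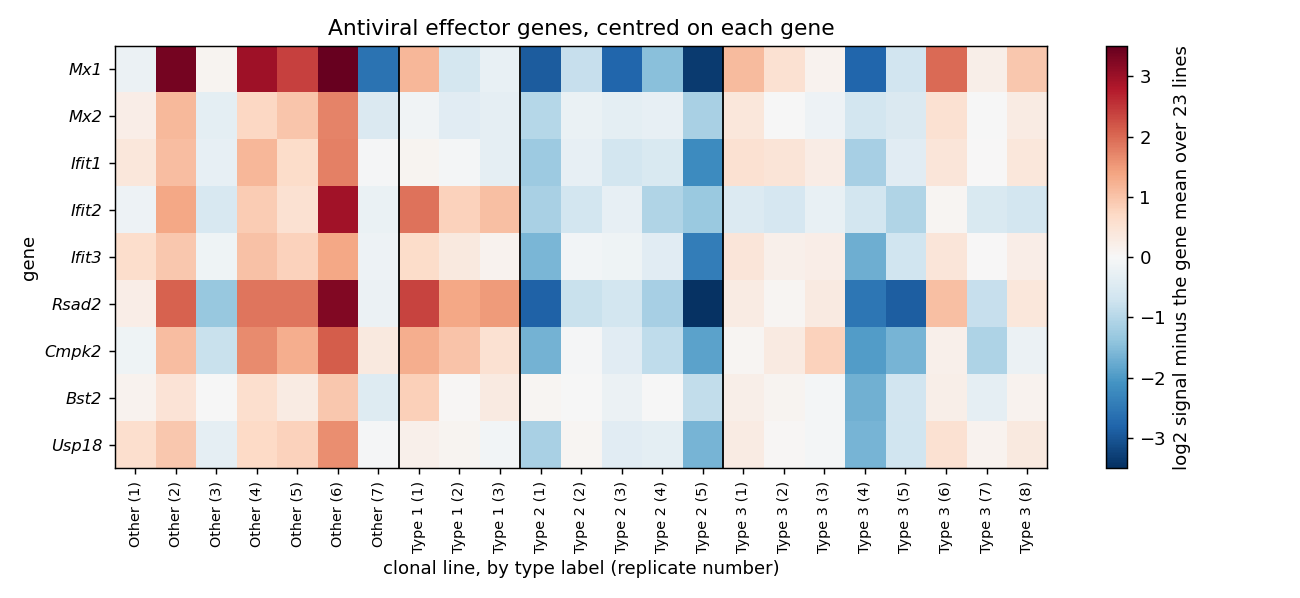
Log2 signal minus each gene's mean over 23 lines (colour) for 9 antiviral effector genes (rows) in the lines of Other, Type 1, Type 2 and Type 3 (columns, separated by black lines). Other line 6 is above the mean in all 9 genes, and Type 2 line 5 and Type 3 line 4 are below it in all 9.

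Other interferon genes were low to different degrees in the low lines. In Type 2 line 5, 7 of the 9 genes had their lowest level of all 23 lines, against 3.89% of all genes, while 0 of 19 interferon gamma target genes and 0 of 13 genes of class I antigen presentation did. In Type 3 line 4, 2 of the 9 (Cmpk2 and Bst2) had their lowest level, but so did 16 of the 19 interferon gamma targets, 12 of the 13 class I genes and 23 of 36 other interferon-stimulated genes, against 10.5% of all genes. Because Type 3 line 4 held most of the lowest places, the count was repeated without it. Type 2 line 5 was then the lowest of 22 lines for 9 of the 9 genes, 20 of the 36 other interferon-stimulated genes, 6 of the 19 interferon gamma targets and 3 of the 13 class I genes, against 4.65% of all genes. The mean of the interferon gamma targets, centred in the same way, was -2.59 in Type 3 line 4, -0.72 in Type 2 line 5 and -0.08 in Type 2 line 1.

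Single interferon gamma targets differed in how the lines ranked. The guanylate-binding protein gene Gbp2 was 10.55 in Type 3 line 4 and 13.16 to 14.07 in the other 22 lines, and the transcription factor gene Irf1 was 10.05 there against 11.49 to 12.61. Ciita, the master regulator of class II genes, was 3.73 against 5.94 to 7.94. In Type 2 line 5 these were 13.43, 11.71 and 6.04, inside the range of the others. Yet the class II genes H2-Aa (9.99) and H2-Ab1 (9.56), Gbp6 (11.82) and the chemokine gene Cxcl10 (8.32) were lower there than in any line but Type 3 line 4, which had 7.40, 8.31, 9.42 and 8.12. Jak2, a kinase of the interferon gamma receptor, was 8.58 in Type 3 line 4 against 9.04 to 10.27, while the receptor gene Ifngr1 was 8.91 there against 7.97 to 8.84. Both low lines had low Irf7, a factor that amplifies type I interferon responses (7.51 in Type 3 line 4 and 8.04 in Type 2 line 5, where the lines other than Type 3 line 4 had a median of 9.91). These are single lines with no replicate.

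**Figure D5:**
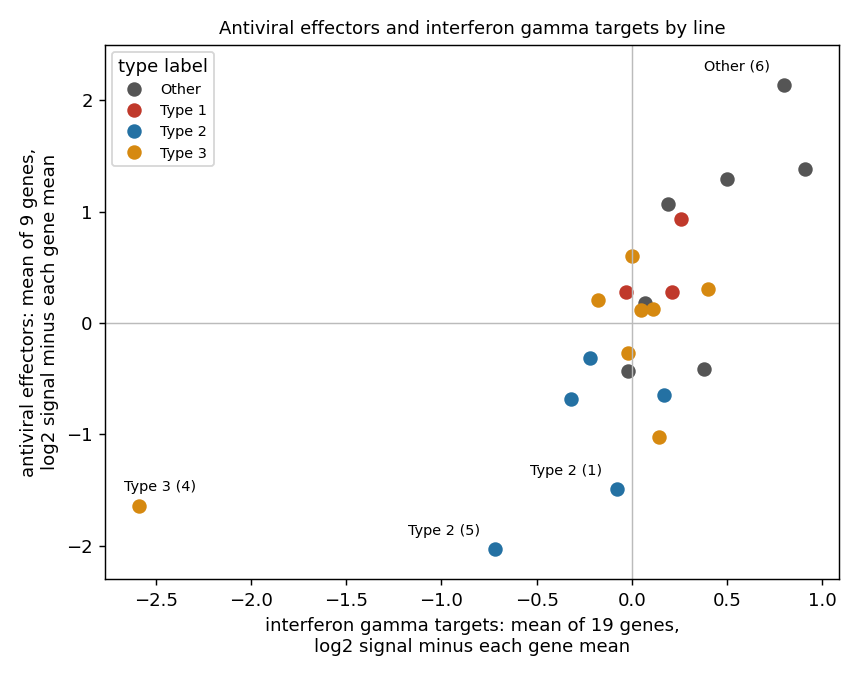
Mean of 9 antiviral effector genes (y axis) against the mean of 19 interferon gamma target genes (x axis) in 23 lines, each gene as log2 signal minus its mean over the lines, with colour giving the type label. Type 3 line 4 lies alone at -2.59 on the x axis, Type 2 lines 1 and 5 are low on the y axis (-1.49 and -2.03) at -0.08 and -0.72 on the x axis, and Other line 6 is highest at 2.14.

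Other line 6, the highest line in all 9 genes, also had the highest Ifnb1, the gene of interferon beta, at 7.13, against 4.51 to 5.89 in the other 22 lines (median 4.96). The chemokine gene Cxcl11 was 13.42 there against at most 11.47, and Tnfaip3, an inhibitor of NF-kappaB signalling, 11.85 against at most 9.54. Of 36 other interferon-stimulated genes 21 had their highest level in this line, and of 19 interferon gamma targets 4 did, against 7.23% of all genes. Its Mx1 (10.84) was close to that of Other line 2 (10.70), whereas Ifit2 (13.38) lay clear of the next line (12.34 in Type 1 line 1). Whether interferon beta protein was present in the medium was not tested.

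Other genes of the pathway were read from lists. Of 36 other interferon-stimulated genes tested, 0 passed in Other minus Type 2, with 34 of 36 differences positive (median 0.61), and 0 passed in Other minus Type 3, also with 34 positive (median 0.43). The largest named gene was Ifi27l2a, at 11.96 ± 1.01 in Other and 9.60 ± 1.34 in Type 2 (2.36 ± 0.48, adjusted p = 0.0713, limma). In Type 1 minus Type 2 the list had 2 higher and 2 lower of 36, where 14.5% of all genes were higher and 10.7% lower. Ifi27l2a rose by 2.92 ± 0.60 (adjusted p = 0.001) and the oligoadenylate synthetase-like gene Oasl1 by 1.49 (adjusted p = 0.0425), and Slfn5 (-1.64, adjusted p = 0.00486) and Ifitm2 (-0.81, adjusted p = 0.019) fell in Type 1. In Type 1 minus Type 3, where 18.9% of all genes were higher and 15.8% lower, it had 2 higher (Epsti1 by 3.80 and Oasl1 by 1.67) and 3 lower (Slfn5 -2.18, Ifitm2 -1.43 and Ifitm3 -0.31). In Other minus Type 1 it had 6 higher and 0 lower, among them Slfn5 (2.35) and Ifitm2 (1.35), where 12.4% of all genes were higher and 16% lower. Slfn5 and Ifitm2 thus had their lowest group mean in Type 1, where Ifit2 and Rsad2 had their highest. Without Type 1 line 1, Oasl1 (1.45, adjusted p = 0.125) and Ifitm2 (-0.84, adjusted p = 0.0523) did not pass against Type 2, nor Ifitm3 against Type 3 (-0.38, adjusted p = 0.054, limma). Without Type 3 line 4 the list had 8 higher and 2 lower in Type 1 minus Type 2 (27.2% of all genes passed). It then had 2 higher and 6 lower in Type 1 minus Type 3 (35.4%), and 1 higher in Other minus Type 2 (0.179%).

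Genes of JAK, STAT and IRF signalling passed in the 3 comparisons with Type 1, at shares below or near those of all genes. Jak1, the kinase shared by the receptors of type I, II and III interferons, averaged 11.31 ± 0.35 in Other, 9.63 ± 0.17 in Type 1, 10.86 ± 0.28 in Type 2 and 11.33 ± 0.21 in Type 3. Other minus Type 1 was 1.68 (adjusted p = 3.68e-07), Type 1 minus Type 2 -1.23 (adjusted p = 5.93e-05) and Type 1 minus Type 3 -1.70 (adjusted p = 1.97e-07, limma). The JAK, STAT and IRF list (12 genes tested) had 1 higher and 1 lower in Type 1 minus Type 2 (25.2% of all genes passed), 1 and 3 in Type 1 minus Type 3 (34.7%), and 3 and 1 in Other minus Type 1 (28.4%). Irf3 rose in Type 1 by 0.52 against Type 2 (adjusted p = 0.00414). Without Type 1 line 1, Jak1 passed in all 3 comparisons and Irf3 against Type 2 (0.42, adjusted p = 0.0461, limma), but Irf3 (0.30, adjusted p = 0.101) and Stat3 (-0.28, adjusted p = 0.176) did not pass against Type 3, nor Stat3 in Other minus Type 1 (0.35, adjusted p = 0.109). In the remaining comparisons between groups 0 of the 12 passed, with 10 of 12 positive in Other minus Type 2.

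Negative regulators, and ligand and receptor genes, had counts to be read against the shares of all genes. Those were 14.5% higher and 10.7% lower in Type 1 minus Type 2, and 18.9% and 15.8% in Type 1 minus Type 3. They were 12.4% and 16% in Other minus Type 1, and 0.203% and 0.179% in Type 2 minus Type 3. Among negative regulators (12 tested), 2 were higher in Type 1 minus Type 2, the phosphatase gene Ptpn2 (0.66 ± 0.15, adjusted p = 0.00236) and Tnfaip3 (1.91 ± 0.68, adjusted p = 0.0446). In Type 1 minus Type 3 there were 2 higher and 2 lower, with Socs3, an inhibitor of cytokine receptors, at -1.81 ± 0.38 (adjusted p = 0.000876, limma). Socs3 (1.90) and Socs1 (1.04, adjusted p = 0.0146) were higher and Ptpn2 (-0.45) lower in Other minus Type 1, and Pias1 was lower in Type 2 minus Type 3 (-0.41, adjusted p = 0.0423). Ligand and receptor genes (7 of 15 tested) had 2 higher in Type 1 minus Type 2, the receptor genes Ifnar1 (0.42 ± 0.12, adjusted p = 0.0164) and Il10rb (0.81 ± 0.25, adjusted p = 0.022). They had 1 higher and 2 lower in Type 1 minus Type 3, and 1 higher, Ifngr1, in Other minus Type 1 (0.48, adjusted p = 0.0183). Without Type 1 line 1, Tnfaip3 (1.74, adjusted p = 0.154), Ifnar1 (0.34, adjusted p = 0.115) and Il10rb (0.52, adjusted p = 0.207) did not pass against Type 2, Il10rb, Ifna1 and Ifngr1 did not against Type 3 (adjusted p from 0.0879 to 0.319), and Socs1 (0.87, adjusted p = 0.097) and Ptpn2 (-0.33, adjusted p = 0.161) did not in Other minus Type 1. Without Type 3 line 4, Pias1 (-0.38, adjusted p = 0.0607) and Ifngr1 in Type 1 minus Type 3 (-0.32, adjusted p = 0.0596, limma) did not pass. Of 10 nucleic acid sensors 0 passed in any comparison between groups with all lines in, with 9 of 10 positive in Other minus Type 2. Tlr3 was at 1.33 ± 0.39 there (adjusted p = 0.147, limma). Without Type 3 line 4, 2 of the 10 were higher in Other minus Type 1, where 30.2% of all genes passed.

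Interferon gamma targets and class I genes were read last. With all lines in, 0 of 19 targets passed in Other minus Type 2 (18 positive, median 0.36), where 0.00813% of all genes did. In Type 1 minus Type 2 it was also 0 (16 positive, median 0.51), where 25.2% did. Cd274, the gene of PD-L1, passed in Type 1 minus Type 3 (1.62 ± 0.45, adjusted p = 0.00805, limma), and the chemokine gene Cxcl9 in Other minus Type 1 (12.69 ± 0.62 in Other and 8.18 ± 1.28 in Type 1, adjusted p = 0.00812), where Serping1 passed too (0.70). Of 13 class I genes only H2-K1 passed between groups with all lines in, in Type 1 minus Type 2 (0.45 ± 0.13, adjusted p = 0.0141). Without Type 1 line 1 it did not (0.33, adjusted p = 0.129, limma). Cd274, Cxcl9 and Serping1 passed without that line too. These counts changed without Type 3 line 4. In Type 1 minus Type 2 (27.2% of all genes passing), 4 of the 19 targets were then higher. Of the class I genes 3 were higher and 1 lower. In Type 1 minus Type 3 (35.4%), 4 targets were higher, and 2 class I genes were higher and 1 lower. In Other minus Type 1 (30.2%), 2 targets were higher and 1 lower, and 1 class I gene was higher. The class I median was 0.15 in Other minus Type 2, against 1.57 for the 9 antiviral effectors. For depot and both scores 0 genes of any of these lists passed.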

How the data were processed

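Gene expression was measured in 23 clonal lines, 1 array each, from 250 ng of total RNA per the labels. Deposited values ran from 2.03 to 14.46 with array medians from 5.09 to 5.16 and were taken as log2 signal from that range, since no header states the scale. MAS5 is named, without a version, in the submitters' processing notes, and the way arrays were summarised and scaled is not given here. Values were used as deposited in the main fit. The offset of 16, added after values were put back on the linear scale, was applied only in an alternative run. Of 45101 probe sets, 64 were controls, 34945 list 1 gene symbol, 932 several and 9211 none. Each gene took its single-symbol probe set with the highest mean, and a gene was tested if 3 or more lines exceeded 5.131, the median of the table, which left 12307.

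Groups were compared in R 4.3.3 by limma 3.58.1 (lmFit, eBayes), fitted over all lines with Benjamini-Hochberg adjustment over all genes tested and a threshold of 0.05. Depot and score models kept group. Correlations used 100000 two-sided permutations of lines in Python 3.11.15 with numpy 2.4.6, scipy 1.17.1 and pandas 2.3.3, and the plots matplotlib 3.10.9. The fit was tested on simulated data. Alternatives were array weights, both groups alone, an intensity trend, and depot, clone-name number or actin ratio in the model. Group was also left out of the depot and score models. Other alternatives were the mean of probe sets, all probe sets tested, no filter on low values and the offset. The last were quantile normalization, arrays centred on their medians, and each line left out. The actin ratio, the Type 3 correlation without line 4, the list genes without Type 1 line 1 or Type 3 line 4, and the lowest places without Type 3 line 4 were added after seeing the data. Replicate numbers follow deposition order and pair nothing.

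The genes and lists were chosen with earlier results of these data known. For the comparisons, genes were chosen as all listed genes, the 8 most like Mx1, the 8 most like all members, and genes from each pathway list. From each list these were up to 3 of the smallest p among those passing in each direction, or the 1 with the smallest p where none passed. Not every listed gene, nor every gene so chosen, is given with its value in each comparison. Genes given for single lines were picked after their values were seen. Whether cells had been differentiated before RNA extraction is not given in the labels. The number of arrays limits the precision, and no detection calls were used. A gene of the signalling list is not analysed here.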

Additional observations from a re-analysis of the deposited data

Results flagged for a closer look

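In the 8 Type 3 lines Bst2 lay far from the rest in 1 line. It was 9.63 in Type 3 line 4, and the nearest other line was at 10.65, a gap of 0.54 of the whole range of the group, where 0.526 is the limit for 8 samples. This was the single such gap among 27 combinations of gene and group examined, and chance alone gives about 1 in 20. In the same line most interferon gamma targets and class I genes were the lowest of all lines, as given above. Its part in this gap was not tested.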

How the results depend on the processing

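No difference that passed changed direction under any alternative run. The count of genes passing in Type 1 minus Type 2 (3 of 9) was 5 with array weights and 1 to 4 with 1 line left out, 1 being the count without Type 1 line 1. In Type 1 minus Type 3 (1 of 9) it was 2 with array weights, 2 with only both groups compared, and 0 to 2 with 1 line left out. In Type 2 minus Type 3 (0 of 9) it was 2 with array weights. In Other minus Type 1 (0 of 9) it was 2 with array weights and 0 to 1 with 1 line left out. In Other minus Type 2 (0 of 9) it was 3 with array weights and 0 to 6 with 1 line left out, 6 being the count without Other line 7. Of the 4 array weight fits, 3 stopped before reaching their tolerance. The shares of all genes passing with array weights, or with only both groups compared, are not given here, so those counts lack a background. Over the alternatives that kept all lines, up to 1037 genes passed in Type 2 minus Type 3, up to 104 in Other minus Type 2 and up to 5818 in Type 1 minus Type 2. The median correlation was 0.80 to 0.84 with 1 line left out. Ifit2 in Type 1 minus Type 2 passed under all 35 alternatives, and Mx1 passed there with only both groups compared (adjusted p = 0.0269, limma) and with array weights (adjusted p = 0.02). Over all genes, the 3099 passing in Type 1 minus Type 2 ranged from 2004 to 5818, the 4274 in Type 1 minus Type 3 from 3124 to 7168, the 47 in Type 2 minus Type 3 from 0 to 1037, the 3495 in Other minus Type 1 from 2214 to 5798, and the 1 in Other minus Type 2 from 0 to 216. No paired analysis was possible because a line's number is its place by accession within its group and links no line to another. All lines come from 1 animal, were cultured with interferon gamma and have 1 array each, so culture and clone cannot be told apart.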
